A study of Mus musculus with 19 samples.

Results

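The genes that lie on both sides of Ikbkb, the gene of the kinase IKKβ, were compared between mice that carried the floxed Ikbkb allele and mice that did not. All rows of the deposited matrix on mouse chromosome 8 (GRCm38) that start within about 5 Mb on either side of Ikbkb (chr8:22659212-22706589) were taken, which gave 97 rows. Ikbkb itself and 4 genes named Adam plus a number were set aside, and of the other 92 rows 65 reached at least 10 normalised counts in at least 4 of 19 mice. These 65 genes are the members described here, out of 14845 genes tested and 20408 rows in all, and 27 rows of the region stayed below the filter. Of the members, 51 carry a protein-coding annotation and 10 are annotated as pseudogenes. The members start at 24 places on the centromere side of Ikbkb and 41 on the other side.

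The study followed the early response of the aorta to angiotensin II (Ang II), a vasoactive peptide that drives abdominal aortic aneurysm in hyperlipidemic mice, and the part that IKKβ of smooth muscle plays in it. RNA-Seq was run on poly(A) RNA of the suprarenal aorta after 24 h of subcutaneous infusion by osmotic pump. The knockout (KO, IKKβ-/-) mice were SMA-CreERT2 Ikkb Flox/Flox ApoE-/- males, in which tamoxifen given at 8 weeks of age switches on a Cre recombinase driven by the Acta2 promoter of smooth muscle. Their control (WT, IKKβ+/+) littermates were SMA-CreERT2 ApoE-/- males, which had the same Cre, the same tamoxifen and the same loss of ApoE but no floxed allele, on a C57BL6 background and regular chow. Saline was given to 5 WT mice (X2370, X2372, X2373, X2376 and X2378) and 4 KO mice (X2401, X2403, X2406 and X2409). Ang II was given to 5 WT mice (X2350, X2352, X2356, X2358 and X2359) and 5 KO mice (X2380, X2383, X2384, X2385 and X2386), at 500 to 1000 ng/min/kg by the labels and 1000 by the study's methods. Each group had its own run of mouse numbers, so a batch that follows these numbers and the groups cannot be told apart.

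A floxed allele is made by homologous recombination in embryonic stem cells, and the chromosome segment around it stays linked to it for many generations of backcrossing. Genes within a few megabases of a targeted locus can therefore carry alleles of the stem cell strain, called passenger alleles, that the control littermates lack. A deletion can also change its neighbours directly, through lost or newly exposed regulatory DNA. By the study's methods the transgenic mice had been crossed onto C57BL/6J more than 10 times. The strain of the stem cells used for this allele was not given in the sources used here, and the sequence of the mice was not analysed here. An effect of the lost kinase and an effect of the chromosome segment that came with the allele cannot be told apart in this design.

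The members hold no common pathway, since only their position chose them. The nearest neighbours of Ikbkb are Polb, the polymerase of base excision repair, and Plat, the tissue plasminogen activator that starts the lysis of fibrin. Further out lie Slc20a2, a phosphate transporter, Sfrp1, a secreted Wnt antagonist, Fgfr1, a receptor of fibroblast growth factors, and Hgsnat, an acetyltransferase of the lysosome that acts in the breakdown of heparan sulfate. A family of repeated, unprocessed pseudogenes (Gm6483, Gm21811, 6820431F20Rik, 2610005L07Rik and Gm21092) lies on the centromere side.

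The pseudogene copies share sequence to different degrees, which matters for a table made from single reads of 84 bases. Of the 84-base stretches in the transcript of Gm21092, 71.3% also occur in another gene, against 78.0% for Gm21811, 25.3% for 2610005L07Rik, 18.9% for Gm6483 and 16.9% for 6820431F20Rik. The stretches below were chosen to show what a read from such a copy can and cannot tell. The first pair is an 84-base stretch shared letter for letter by Gm21092 (chr8:20567644-20567727, plus strand, exon 1) and Gm21811 (chr8:20136502-20136585, plus strand, exon 1).
Gm21092: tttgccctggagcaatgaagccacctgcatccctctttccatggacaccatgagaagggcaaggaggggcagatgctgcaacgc
Gm21811: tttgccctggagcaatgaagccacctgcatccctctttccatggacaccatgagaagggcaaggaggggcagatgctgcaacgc
The second pair comes from exon 2 of the same transcripts (chr8:20572862-20572945 and chr8:20141720-20141803, plus strand) and differs at 1 base, printed in capitals.
Gm21092: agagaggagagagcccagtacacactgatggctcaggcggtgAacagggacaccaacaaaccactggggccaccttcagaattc
Gm21811: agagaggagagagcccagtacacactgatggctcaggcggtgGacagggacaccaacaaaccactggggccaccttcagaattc
These are the C57BL/6J reference letters of GRCm38 with the transcripts of Gencode M21, in which all 65 members were found with the same bounds as in the matrix. A read from the first pair fits both copies, and a read from the second pair is told apart by a single letter. How reads that fit several copies were counted is not stated in the sources used here, so the values of these copies are uncertain. In 48 members, Hgsnat, Plat, Ank1, Smim19, Kat6a and Gm40466 among them, no 84-base stretch was shared with another gene, and 10 members had more than 10% of their stretches shared.

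The libraries held 11382573 to 19906694 reads on genes. Mitochondrial transcripts took 5.99% to 14.09% of these reads in WT mice and 7.88% to 38.71% in KO mice. The highest shares were in X2406 (38.71%) and X2385 (37.19%), and the lowest of KO mice in X2383 (7.88%) and X2409 (8.89%). WT mice had 5.99% to 9.07% with saline and 10.11% to 14.09% with Ang II. X2409, given saline, thus lay within the WT range of its treatment, and X2383, given Ang II, below it. Smooth muscle markers such as Acta2 and Myh11 were abundant in all groups. In bulk tissue, fewer cells of a type and less RNA per cell cannot be told apart. All values are normalised counts, that is, read counts scaled with DESeq2 for the depth of the library. Fold changes come from limma on log2(normalised count + 1), which pulls the fold change of low genes toward 0. A gene was called at a Benjamini-Hochberg adjusted p under 0.1, taken over all genes tested, with a fold change above 1.2.

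Ikbkb was lower in the KO aortas, though far from absent. In WT mice it had 594, 791, 695, 609 and 678 normalised counts with saline and 708, 772, 685, 686 and 779 with Ang II. In KO mice it had 464, 572, 586 and 439 with saline and 572, 430, 672, 515 and 549 with Ang II. Thus 8 of 9 KO mice lay below the lowest WT mouse, and X2384 alone lay above it. The means were 533 ± 78.9 (SD, n = 9) in KO and 700 ± 66.8 (SD, n = 10) in WT mice, which is 23.8% lower (two-sided exact permutation test within treatments, p = 6.3e-05). Cells other than smooth muscle, in which the Cre is not driven, remain in this tissue, and their part in the remaining counts was not tested. Counts per gene also do not show which exons were read. In the study, staining at a later time found no IKKβ protein in the media of KO mice.

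Averaged over both treatments, 9 of 65 members (13.8%) differed between the genotypes, against 7.24% of all genes tested. Of these, 7 were lower in KO mice, namely Hgsnat, Gm21092, Ank1, Plat, 6820431F20Rik, Gm17484 and Kat6a, where 3.45% of all genes were lower. Smim19 and Gm40466, 2 of 65, were higher, where 3.79% of all genes were higher. The typical member did not stand out, with a median log2 difference of -0.04 against -0.02 for all genes and a median absolute log2 difference of 0.17 in both sets. At an unadjusted p under 0.05, 23.1% of members and 22.1% of all genes passed. A few members stood far up the ranking of all 14845 genes by p. Hgsnat was at rank 3, Smim19 at rank 18, Ank1 at rank 19 and Plat at rank 41, whereas Ikbkb itself was at rank 85.

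**Figure D1:**
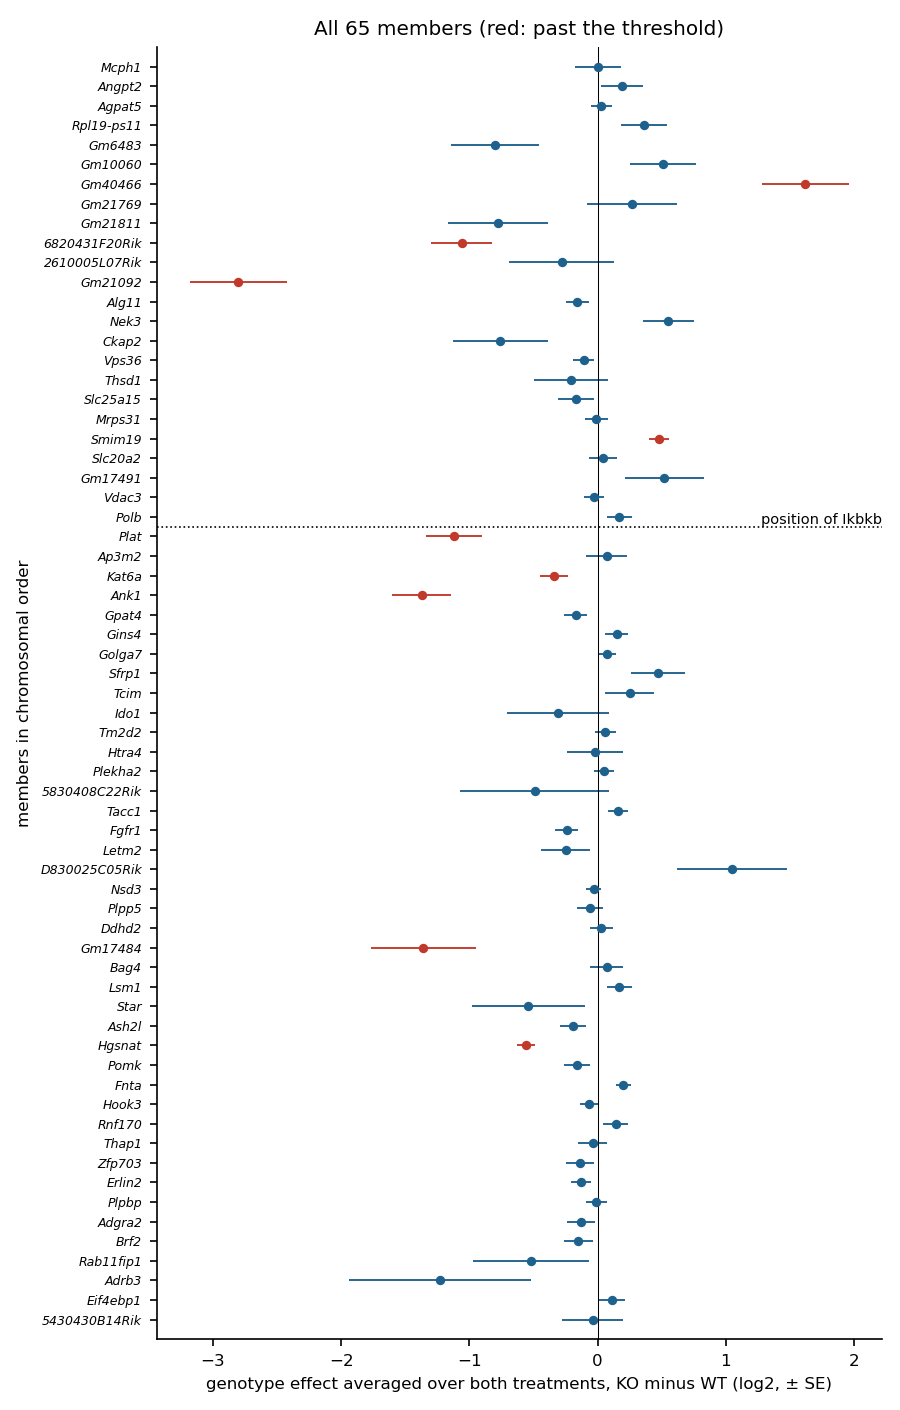
Averaged genotype effect of all 65 members in chromosomal order. The horizontal axis gives the limma log2 difference KO minus WT over both treatments, bars give ± SE, red marks the 9 members past the threshold, and the dotted line marks the place of Ikbkb. Most members lie close to 0, with Gm21092 at -2.8 and Gm40466 at 1.62 farthest out.

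Hgsnat (ENSMUSG00000037260.8, chr8:25944453-25976753) gave the clearest separation among members with many reads. WT mice had 694, 646, 720, 701 and 812 normalised counts with saline and 628, 684, 705, 624 and 722 with Ang II. KO mice had 510, 484, 362 and 513 with saline and 444, 533, 462, 480 and 450 with Ang II. The highest KO mouse, at 533, was below the lowest WT mouse, at 624, so the genotypes did not overlap in any of 19 mice. Means were 471 ± 50.5 (SD, n = 9) in KO and 694 ± 55.0 (SD, n = 10) in WT mice, with a log2 difference of -0.56 (SE 0.07), 1.48-fold lower (limma, adjusted p = 0.00114). X2383 and X2409, the KO mice with the lowest mitochondrial shares, had 533 and 513 and were also below every WT mouse. The call held in 28 of 28 alternatives, including a fit with the mitochondrial share as a covariate (-0.44, adjusted p = 0.0729).

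Gm21092 (ENSMUSG00000095403.8, chr8:20567597-20582771), the pseudogene whose sequence is shown above, was almost without reads in KO mice. WT mice had 7.99, 11.9, 7.05, 13.3 and 9.56 normalised counts with saline and 12.9, 11.7, 12.1, 7.64 and 6.96 with Ang II. KO mice had 0.965, 3.16, 0 and 0 with saline and 0, 1.59, 0, 0 and 1.29 with Ang II. No KO mouse had more than 3 reads and no WT mouse fewer than 7, so the genotypes did not overlap. In all, 7 reads fell on the gene in 9 KO mice and 110 in 10 WT mice, a rate 12.3 times higher in WT mice (95% exact interval 5.75 to 31.2, counting error only). The ratio was 9.63 with saline (3.57 to 36.5) and 15.8 with Ang II (5.11 to 79.5). Gm21092 was the only member that reached 10 normalised counts in mice of 1 genotype only. It passed the filter through the group in which it was high and so had to differ, and its fitted difference depends on the pseudocount because the KO group is at the floor of 3 reads. Without it, 8 of 64 members (12.5%) were called for the averaged effect, 7 of 64 with saline and 2 of 64 with Ang II. Still in these counts are Gm40466, with at most 9.56 normalised counts in WT saline mice, and Gm17484, with at most 4.35 in KO saline mice. Both passed the filter through other groups, so their saline calls are not free of the filter.

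Other copies of the pseudogene family gave smaller differences. 6820431F20Rik (chr8:20262613-20297432) had 32.6, 37.3, 30.8, 33.2 and 31.9 normalised counts in WT saline mice and 9.65, 5.27, 10.8 and 19.6 in KO saline mice, with no overlap. With Ang II it had 33.2, 29.9, 15.4, 29.6 and 32.8 in WT and 12.9, 18.3, 13.7, 33.7 and 20.6 in KO mice, where X2385 (33.7) was the highest of these 10 mice and X2356 (15.4) lay among the KO mice. The averaged log2 difference was -1.06 (SE 0.24, adjusted p = 0.0295), while the Ang II comparison alone gave -0.52 (SE 0.33, adjusted p = 0.478). Gm21811, the copy printed above beside Gm21092, did not pass (-0.78, SE 0.39, adjusted p = 0.249). Nor did Gm6483 (-0.80, SE 0.34, adjusted p = 0.168) or 2610005L07Rik (-0.28, SE 0.41, adjusted p = 0.723). Gm40466 (chr8:20001099-20008736), a pseudogene in the same stretch of the chromosome but without shared stretches, went the other way, with 2.66, 3.18, 6.17, 2.85 and 9.56 in WT saline mice against 23.2, 28.4, 34.2 and 15.2 in KO saline mice. With Ang II its values were 3.21, 6.4, 11.0, 14.3 and 2.98 in WT and 8.32, 7.94, 23.2, 20.9 and 15.4 in KO mice, and the groups overlapped. Its averaged log2 difference was 1.62 (SE 0.34, adjusted p = 0.0227), from 157 reads in KO and 67 in WT mice. By limma 3 of 10 pseudogenes and 6 of 55 other members (10.9%) were called, beside 7.24% of all genes. Another of the 10, D830025C05Rik, which overlaps Letm2 on the opposite strand, had 2.0 to 12.9 normalised counts in WT and 3.17 to 34.2 in KO mice, a 2.07-fold difference by limma (adjusted p = 0.16). It was called higher by edgeR (adjusted p = 0.0746) and by DESeq2 (adjusted p = 0.034).

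**Figure D2:**
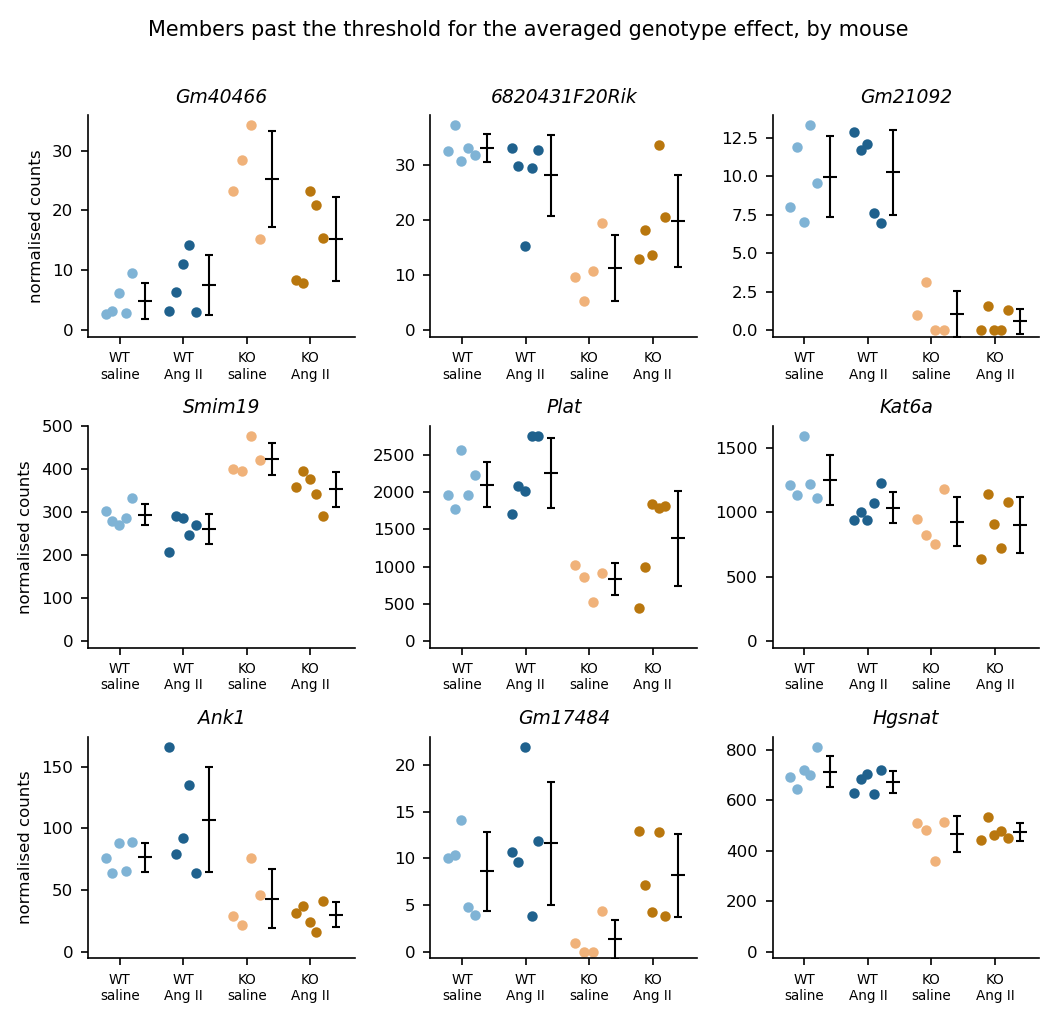
Normalised counts per mouse of the 9 members past the threshold for the averaged genotype effect, in chromosomal order. Each point is a mouse, and the bar beside each group gives its mean ± SD, with bars cut at the lower edge of the panel. For Hgsnat and Gm21092 the KO and WT mice do not overlap under either treatment, whereas for Kat6a they do under both.

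Plat (ENSMUSG00000031538.6, chr8:22757727-22782844), the next member beyond Ikbkb, was lower in KO mice. It had 1965, 1777, 2565, 1956 and 2225 normalised counts in WT saline mice and 1017, 862, 526 and 910 in KO saline mice, with no overlap (log2 difference -1.37, SE 0.32, adjusted p = 0.0483). With Ang II it had 1706, 2085, 2006, 2748 and 2746 in WT mice and 440, 999, 1842, 1790 and 1812 in KO mice. Here X2380 and X2383 were far below the WT mice and the other 3 KO mice lay within the lower end of the WT range (-0.87, SE 0.30, adjusted p = 0.218). The averaged difference was -1.12 (SE 0.22), 2.17-fold lower (adjusted p = 0.0173), and the difference between the treatments did not pass (adjusted p = 0.671). X2383 and X2409, the KO mice with the lowest mitochondrial shares, had 999 and 910, below the lowest WT mouse at 1706. Endothelial cells are a known source of tissue plasminogen activator. The summed level of 7 endothelial markers was 20722 to 35431 in WT saline, 13137 to 27992 in KO saline, 11218 to 22699 in WT Ang II and 7162 to 25071 in KO Ang II mice, none of the 7 was called for the averaged genotype effect or within a treatment, and the part of these cells in the Plat result was not tested. With the mitochondrial share as a covariate the averaged difference was -1.21 but no longer called (adjusted p = 0.203). Of the single-treatment results, the saline call was lost without X2373, X2403 or X2406 (largest adjusted p = 0.166).

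Ank1 (ENSMUSG00000031543.18, chr8:22974844-23150497) and Kat6a (ENSMUSG00000031540.14, chr8:22859535-22943259), on the side of Plat, were also lower. Ank1, an ankyrin that ties the membrane skeleton of red cells to the membrane and has a small muscle form, had 75.9, 64.3, 88.1, 65.5 and 89.3 normalised counts in WT saline and 29.0, 22.1, 75.7 and 45.7 in KO saline mice. With Ang II it had 166, 79.0, 92.1, 135 and 63.6 in WT and 31.4, 37.3, 24.3, 16.1 and 41.1 in KO mice, so the genotypes did not overlap with Ang II and overlapped through X2406 alone with saline. The averaged log2 difference was -1.37 (SE 0.23), 2.58-fold lower (adjusted p = 0.0084). Erythroid markers, summed over 5 genes, ranged from 106 to 3060 in WT and from 84.1 to 4175 in KO mice given Ang II, and none of the 3 tested was called between genotypes, while skeletal muscle markers ranged from 161 to 484 and from 157 to 395 in the same groups. Their part in the result was not tested. Kat6a, a histone acetyltransferase, had 1210, 1132, 1593, 1222 and 1109 in WT saline and 952, 822, 758 and 1184 in KO saline mice. With Ang II it had 939, 1002, 939, 1072 and 1229 in WT and 639, 1141, 913, 726 and 1082 in KO mice. Its groups overlapped under both treatments, the averaged difference was small (-0.34, SE 0.11, adjusted p = 0.0996), and the call was lost when any 1 of 14 mice was left out. X2383 and X2409, singled out above for Hgsnat and Plat, here had 1141 and 1184, the highest KO values and within the range of the WT mice.

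Smim19 (ENSMUSG00000031534.15, chr8:22462614-22476882), a small integral membrane protein encoded on the centromere side of Ikbkb, was the only called member with many reads that was higher in KO mice. It had 303, 279, 270, 287 and 332 normalised counts in WT saline and 401, 397, 477 and 422 in KO saline mice, without overlap. With Ang II it had 207, 292, 287, 246 and 271 in WT and 358, 396, 377, 342 and 292 in KO mice, where X2386 touched the highest WT mouse. The averaged log2 difference was 0.48 (SE 0.08), 1.4-fold higher (adjusted p = 0.00839), and it was called in 27 of 28 alternatives. In the fit with the mitochondrial share as a covariate the difference was also 0.48 but no longer called (adjusted p = 0.159). Smim19 is read from the minus strand and Slc20a2 from the plus strand, and the 2 genes overlap head to head at their starts. The libraries were stranded by the study's methods, but the strand setting of the read counts is not stated in the sources used here, so reads in the overlap are uncertain. Slc20a2 itself did not differ between genotypes (0.04, SE 0.11, adjusted p = 0.855).

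Gm17484 (chr8:25754480-25769704), a long noncoding RNA with few reads that overlaps Ddhd2 and Bag4 on the opposite strand, had 9.98, 10.3, 14.1, 4.75 and 3.99 normalised counts in WT saline and 0.965, 0, 0 and 4.35 in KO saline mice. Its values with Ang II were 10.7, 9.61, 21.9, 3.82 and 11.9 in WT and 12.9, 7.14, 4.23, 12.8 and 3.86 in KO mice. The difference was thus seen with saline (-2.29, SE 0.60, adjusted p = 0.0576) and not detectable with Ang II (-0.43, SE 0.56, adjusted p = 0.752), though the difference between these effects did not pass (adjusted p = 0.416). In reads, 7 fell on it in KO saline mice, 6 of them in X2409, and 54 in WT saline mice. The averaged call (-1.36, SE 0.41, adjusted p = 0.0711) was lost without X2359, X2370, X2372, X2373, X2384, X2403 or X2406. Fnta, the α subunit of protein farnesyltransferase, had an adjusted p of 0.0685 for a 1.15-fold difference, under the fold threshold.

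Of the 10 members nearest to Ikbkb, Plat, Smim19 and Kat6a were called for the averaged effect, where 7.24% of all genes were. Polb (chr8:22628126-22653435), the nearest, had 274 to 386 normalised counts in WT and 264 to 477 in KO mice (0.17, SE 0.10, adjusted p = 0.328). Vdac3, a channel of the outer mitochondrial membrane, had 391 to 591 and 366 to 522 (-0.03, SE 0.08, adjusted p = 0.847). Mrps31, a protein of the mitochondrial ribosome, gave -0.01 (SE 0.09), and Ap3m2, a subunit of an adaptor complex, 0.07 (SE 0.16). In chromosomal order, Slc20a2, Gm17491, Vdac3 and Polb, none of them called by limma, lay between Smim19 and Plat, and Ap3m2 lay between Plat and Kat6a. By distance, 4 of 20 members under 1 Mb, 2 of 10 between 1 and 2.5 Mb and 3 of 35 beyond 2.5 Mb were called, beside the same 7.24% of all genes. Gm21092, which had to differ, is 1 of the 2 between 1 and 2.5 Mb. Toward the centromere 2 were higher and 2 lower among 24, and on the other side all 5 that were called among 41 were lower. Over all genes 3.79% were called higher and 3.45% lower. Of 716 genes on the rest of chromosome 8, 19 were called higher and 32 lower.

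On the rest of chromosome 8, 51 of 716 genes (7.12%) were called, and on all other chromosomes 1008 of 14049 (7.17%). The share varied along the chromosome, with 10 of 78 genes (12.8%) before the region and 8 of 28 (28.6%) in the stretch 5 to 15 Mb beyond Ikbkb. With Ang II, 3 of 65 members passed, or 2 of 64 without Gm21092, which had to differ. Beside this, 2 of 28 genes passed in that next stretch and 14 of 14049 on other chromosomes. No test was made of these shares.

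**Figure D3:**
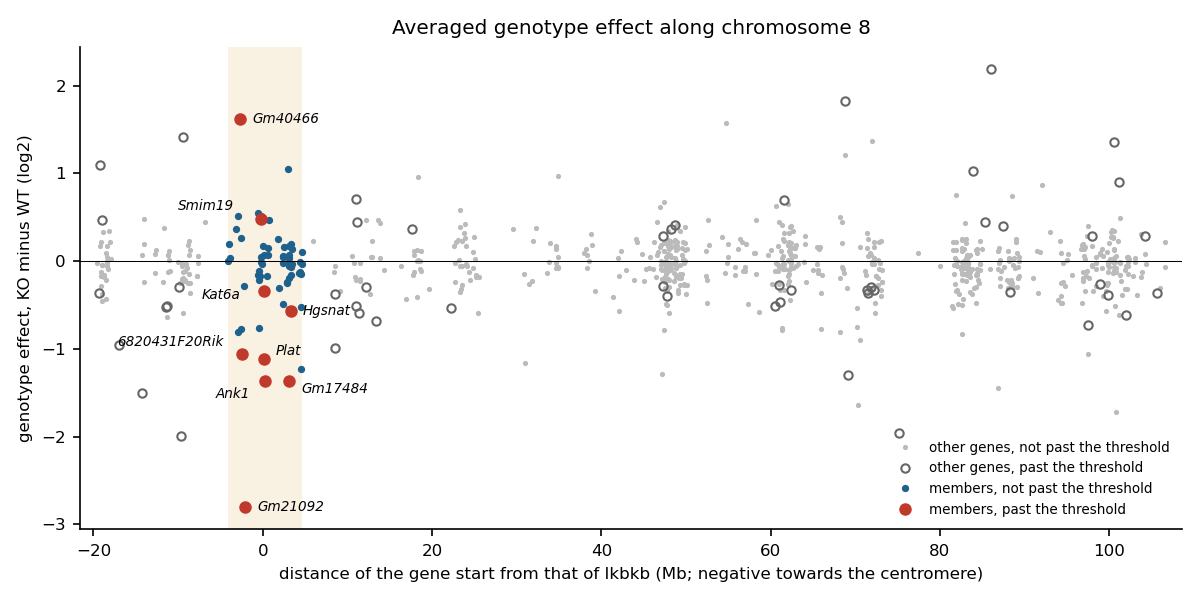
Averaged genotype effect of the genes tested on chromosome 8. The horizontal axis gives the distance of the gene start from that of Ikbkb in Mb, the vertical axis the limma log2 difference KO minus WT, and the shaded band the stretch from the first to the last member. Called members (red) sit on both sides of Ikbkb between members close to 0, and called genes (open circles) are also seen elsewhere on the chromosome.

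With saline alone, 8 of 65 members (12.3%) were called, against 5.47% of all genes. Lower in KO mice were 6, Hgsnat, Gm21092, 6820431F20Rik, Plat, Gm17484 and Erlin2 (2.07% of all genes), and higher were Gm40466 and Smim19 (3.4% of all genes). Erlin2, a protein of the endoplasmic reticulum that binds cholesterol-rich membrane, had 914, 877, 877, 912 and 808 normalised counts in WT and 706, 718, 643 and 656 in KO mice, a log2 difference of -0.37 (SE 0.11, adjusted p = 0.0833). The groups did not overlap for 10 members, among them Gm21092, which had to differ, where this held for 8.76% of all genes. Without overlap but not called by limma were Nek3, a kinase (0.69, adjusted p = 0.19), Thsd1 (-0.95, adjusted p = 0.213) and Zfp703, a transcriptional corepressor (-0.47, adjusted p = 0.106). Zfp703 was called by edgeR (adjusted p = 0.0971) and by DESeq2 (adjusted p = 0.0574). The count of 8 rested on few mice. It was 4 without X2373, 2 without X2403, 1 without X2406 and 13 without X2409, and the gene left without X2406 and X2385 was Hgsnat (-0.50, adjusted p = 0.0807).

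With Ang II, 3 of 65 members (4.62%) were called, all lower in KO mice, namely Ank1 (-1.78, SE 0.32) and Hgsnat (-0.51, SE 0.10), each with an adjusted p of 0.0803, and Gm21092, which had to differ as said above. Only 19 genes in all passed, or 0.128%, with 0.108% lower and 0.0202% higher. No member was called higher by limma or edgeR, while DESeq2 called Smim19 higher beside Ank1 and Hgsnat lower and did not call Gm21092. By limma 13 of 65 members had an unadjusted p under 0.05 in either direction, where 14.3% of all genes did. Among all genes by p, Ank1 was at rank 3 and Hgsnat at rank 11. For these 3 members the groups did not overlap, as for 1.54% of all genes. The count fell to 0 when any of X2350, X2352, X2358, X2370, X2372, X2376, X2384, X2385 or X2401 was left out, with adjusted p up to 0.229, while the log2 differences of Hgsnat stayed between -0.55 and -0.48.

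The saline and the Ang II comparison of the genotypes used different mice. The direction was the same in 39 of 65 members (60.0%), close to 58.3% of all genes. Across both treatments, the 9 KO and 10 WT mice did not overlap for Hgsnat, nor for Gm21092, which had to differ as said above. Such separation was seen for 12 of 14845 genes in all (0.0808%). The difference of the Ang II effect between the genotypes passed for no member by limma, edgeR or DESeq2 and for 0.0% of all genes by limma. At an unadjusted p under 0.05, 9 members (13.8%) passed by limma, against 11.1% of all genes, 7 by edgeR and 8 by DESeq2. The smallest adjusted p of a member was 0.288, for Zfp703 (0.67, SE 0.21) and Erlin2 (0.47, SE 0.15).

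**Figure D4:**
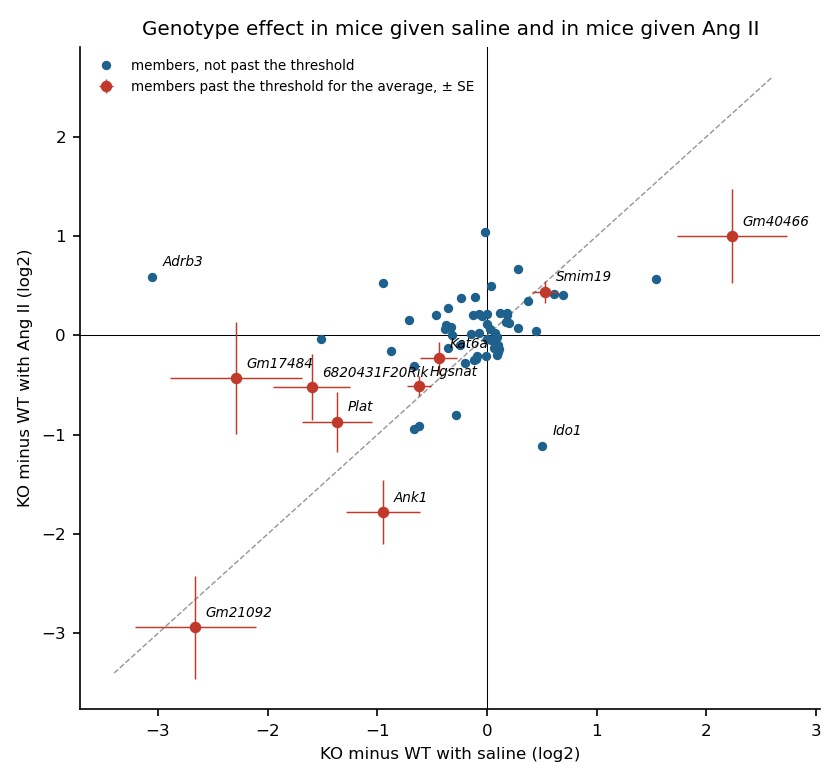
Genotype effect of the 65 members in mice given saline (horizontal axis) and in mice given Ang II (vertical axis), both as limma log2 differences KO minus WT, with the line of equal effects dashed. Members called for the averaged effect are red with ± SE, and of these Hgsnat, Smim19, Kat6a and Gm21092 lie closest to the line. Adrb3 is the farthest from it, at -3.05 with saline and 0.59 with Ang II.

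By function, 4 of the 9 genotype calls fell on 15 members in no role group (26.7%), namely Gm21092, Gm40466, 6820431F20Rik and Gm17484, where 7.24% of all genes were called. The group of secreted signals and receptors had 1 of 9 called (Plat), lipid and amino acid metabolism 1 of 8 (Hgsnat), chromatin and transcription 1 of 5 (Kat6a), protein modification, translation and folding 1 of 8 (Smim19), and cytoskeleton and scaffolds 1 of 3 (Ank1). None of 6 members of cell cycle and DNA repair and none of 11 members of membrane transport and mitochondria was called by limma for the averaged effect, with 1 and 0 at an unadjusted p under 0.05, and neither group had a call by edgeR, while DESeq2 called Nek3 of the first. The median log2 difference of these groups lay between -0.15 and 0.12. Fgfr1, with 3070 to 4270 normalised counts in WT and 2410 to 3930 in KO mice, gave -0.24 (SE 0.09, adjusted p = 0.125). Angpt2, a ligand of the endothelial receptor Tek, gave 0.19 (SE 0.16, adjusted p = 0.515). Adrb3, among the 5 largest negative differences of members with a mean of at least 50, gave -1.23 (SE 0.71, adjusted p = 0.317) with wide scatter within groups. Among the largest positive differences, Nek3 (0.55, SE 0.20, adjusted p = 0.112), Sfrp1 (0.47, SE 0.21, adjusted p = 0.187) and Tcim (0.25, SE 0.19, adjusted p = 0.474) did not pass by limma, while DESeq2 also called Sfrp1 (adjusted p = 0.0961).

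Ang II against saline was compared within each genotype. In WT mice 7 of 65 members (10.8%) were called, against 8.66% of all genes. Lower were 5, Erlin2, Sfrp1, Slc20a2, Zfp703 and Golga7, and higher were Plpp5 and Eif4ebp1, where 4.33% of all genes fell and 4.33% rose. In KO mice 6 members (9.23%) were called, against 5.29% of all genes. Higher were Eif4ebp1, Adrb3, Gm17484 and Gpat4 (2.59% of all genes), and lower were Ido1 and Slc20a2 (2.69% of all genes). Hgsnat did not pass for Ang II in either genotype (-0.09 in WT and 0.03 in KO mice), nor did Smim19, Plat or Ank1. The WT count was 0 without X2350, 1 without X2358, 3 without X2370, X2376 or X2378, and 4 without X2373. The KO count was 3 without X2384, X2385 or X2406, and 0 without both X2385 and X2406, with only the groups compared or with the white adipocyte score as a covariate. The summed white adipocyte markers were 4820 to 7210 in KO saline and 7666 to 28435 in KO Ang II mice, and their part in these calls was not tested beyond that covariate.

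Slc20a2 fell with Ang II in both genotypes. It had 1356, 1184, 1291, 1107 and 997 normalised counts in WT saline and 658, 972, 791, 864 and 807 in WT Ang II mice, without overlap (-0.54, SE 0.15, adjusted p = 0.0507). KO mice had 1041, 1244, 1209 and 1341 with saline and 818, 1157, 546, 963 and 859 with Ang II, where X2383 lay among the saline mice (-0.51, SE 0.16, adjusted p = 0.0987). The KO call held in only 5 of 29 alternatives. Eif4ebp1, the translation repressor that mTORC1 phosphorylates, rose in both genotypes. WT mice had 345, 399, 329, 354 and 380 with saline and 573, 459, 420, 469 and 497 with Ang II (0.41, SE 0.14, adjusted p = 0.0953), and KO mice 351, 372, 324 and 398 with saline and 689, 529, 681, 591 and 368 with Ang II (0.63, SE 0.15, adjusted p = 0.0265). Only X2386 of the KO Ang II mice stayed in the saline range. The WT call was lost when any 1 of 13 mice was left out, and the KO call with the adipocyte score as a covariate (0.61, adjusted p = 0.375), with only the groups compared (0.63, adjusted p = 0.143) and without both X2385 and X2406 (0.56, adjusted p = 0.151).

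Sfrp1, the Wnt antagonist, fell in WT mice from 2345, 3404, 3131, 3637 and 3804 normalised counts to 986, 2556, 1607, 1243 and 1732, 2.09-fold lower (-1.06, SE 0.28, adjusted p = 0.0404). X2352 alone lay within the saline range. In KO mice it had 3333, 7405, 3070 and 3064 with saline and 3874, 1505, 3470, 2150 and 2026 with Ang II (-0.67, SE 0.30, adjusted p = 0.247), and the difference between these effects did not pass (adjusted p = 0.734). The WT call was lost without X2350 or X2358 (largest adjusted p = 0.13). Erlin2 was lower in WT Ang II mice, at 545, 601, 688, 708 and 814, than in the WT saline mice given above (-0.40, SE 0.10, adjusted p = 0.0356), with an overlap through X2359. KO mice given Ang II had 702, 636, 828, 646 and 779, like KO saline mice (0.07, SE 0.11, adjusted p = 0.797). Zfp703 had 429 to 594 in WT saline, 315 to 465 in WT Ang II, 350 to 418 in KO saline and 318 to 533 in KO Ang II mice, and fell with Ang II in WT mice (-0.50, SE 0.15, adjusted p = 0.0541) with 0.17 in KO mice (SE 0.16, adjusted p = 0.627). For both genes, the KO saline mice lay within the range of WT mice given Ang II.

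Golga7, a partner of a palmitoyltransferase, fell in WT mice from 706 to 770 with saline to 565 to 674 with Ang II, without overlap (-0.28, SE 0.09, adjusted p = 0.0931), and gave -0.03 (SE 0.10) in KO mice. Plpp5, a lipid phosphatase, rose in WT mice from 416 to 646 to 606 to 836 (0.47, SE 0.13, adjusted p = 0.0487) and gave 0.17 (SE 0.14) in KO mice. Gpat4, an acyltransferase of triglyceride synthesis, rose in KO mice from 492 to 773 to 813 to 1090, without overlap (0.44, SE 0.13, adjusted p = 0.0759), and gave 0.28 (SE 0.12, adjusted p = 0.198) in WT mice. The KO call of Gpat4 was lost with the adipocyte score as a covariate (0.34, adjusted p = 0.592), with array quality weights (0.36, adjusted p = 0.136), with only the groups compared (0.44, adjusted p = 0.238) and without both X2385 and X2406 (0.33, adjusted p = 0.23). For none of these genes did the difference between the genotypes' responses pass (adjusted p from 0.491 to 0.753).

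Ido1, an enzyme of tryptophan breakdown with few reads, fell in KO mice from 32.8, 22.1, 45.0 and 8.71 normalised counts to 12.9, 1.59, 2.11, 6.42 and 1.29 (-2.42, SE 0.58, adjusted p = 0.0273), with overlap between X2409 and X2380. WT mice had 6.65 to 34.1 with saline and 6.43 to 15.4 with Ang II (-0.82, SE 0.54, adjusted p = 0.417). Adrb3, a β-adrenergic receptor of adipocytes, had 5.79, 29.5, 0 and 6.53 in KO saline and 86.9, 7.14, 226, 356 and 125 in KO Ang II mice (3.90, SE 1.04, adjusted p = 0.0471). X2383 alone stayed at the saline level. Of the white adipocyte markers given above, 6 were tested and 5 of these were called higher in KO Ang II mice, while Plin4 gave 0.10. With their score as a covariate the log2 difference of Adrb3 turned to -0.18. WT mice, in which Adrb3 ranged from 15.1 to 202 with saline and from 10.5 to 112 with Ang II, gave 0.26 (SE 0.98, adjusted p = 0.916), and the difference between the genotypes' responses did not pass (adjusted p = 0.368).

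**Figure D5:**
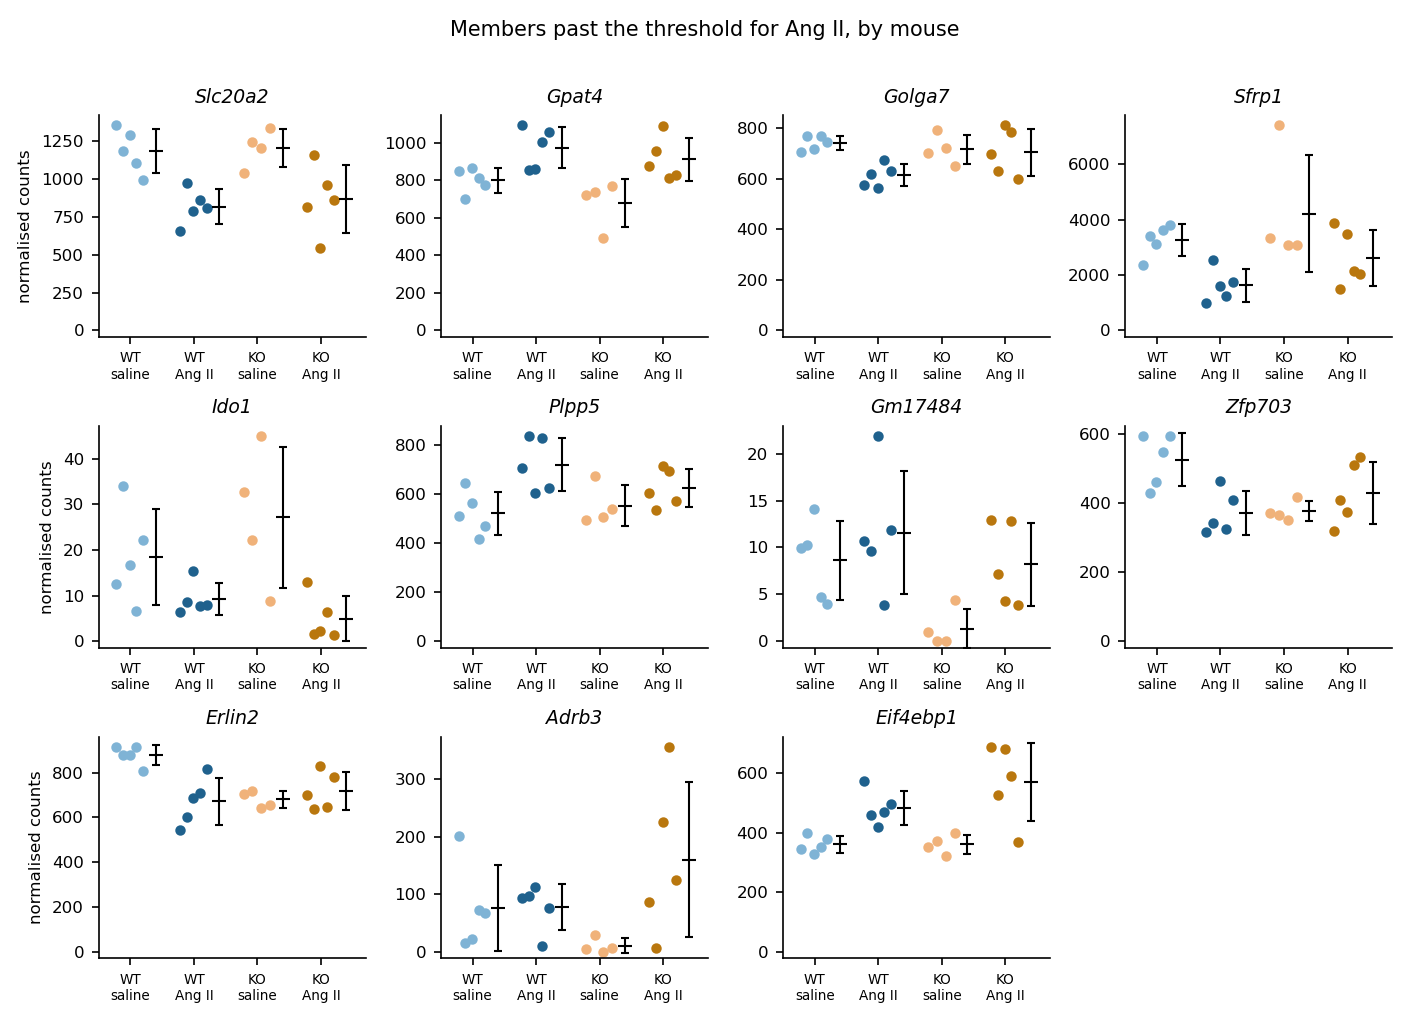
Normalised counts per mouse of the 11 members past the threshold for Ang II against saline in at least 1 genotype, in chromosomal order. Each point is a mouse and the bar beside each group gives its mean ± SD, cut at the lower edge of the panel. Slc20a2 is lower and Eif4ebp1 higher with Ang II in both genotypes, and in Erlin2 and Zfp703 the KO saline mice lie at the level of WT mice given Ang II.

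Macrophage markers moved with the genotype in saline mice and are given beside these results. Their sum over 6 genes was 6703 to 8749 in WT saline and 4006 to 5744 in KO saline mice, without overlap, and 5238 to 8266 in WT Ang II and 2761 to 11232 in KO Ang II mice, and 3 of 6 were called lower for the averaged effect. Fibroblast markers ranged from 108815 to 154348 in WT saline and from 92807 to 124317 in KO saline mice. Of 8 markers of the adrenal cortex, a gland beside this part of the aorta, 2 were in the matrix, at a sum of 0 to 9.64. The member Star, which carries cholesterol into mitochondria for steroid synthesis, had 3.60 to 93.6. Among 6 markers of Schwann cells and neurons, Th and Dbh had means of 185 and 378 in WT Ang II mice. Their means were at most 4.26 in the other groups. The sum of these 6 markers in WT Ang II mice had a median of 397 and a maximum of 4371. The part of these cells in the results was not tested.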

How the data were processed

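RNA of the suprarenal aorta of 19 mice was measured. Per the labels and the methods of the study, poly(A) libraries were read as single reads of 84 bases, trimmed with Trimmomatic 0.35, aligned to GRCm38 with STAR 2.7.1a and counted per gene on a Gencode annotation (RSEM is also named). The authors then scaled the read counts with DESeq2 1.30.1, and this signal is what they deposited. In each library 100.0% of values were whole multiples of 1 read within a tolerance of 0.001, so the reads were recovered, although in X2359 a read is worth close to 1 and the check says less. The depth was 11382573 to 19906694 reads per mouse, so genes with few reads are imprecise, and no per-sample column was left unused.

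Genes with at least 10 normalised counts in at least 4 mice were tested with limma 3.58.1 in R 4.3.3 (log2 with a pseudocount of 1, 1 mean per group, all 4 groups, trend). Tests were two-sided and adjusted by the Benjamini-Hochberg method over 14845 genes. The contrasts were KO against WT over both treatments, with saline and with Ang II, Ang II against saline in each genotype, and the difference of these effects. Named are members called in a genotype comparison, the 10 nearest to Ikbkb, the 5 largest rises and 5 largest falls of the averaged effect at a mean of at least 50, and the 5 largest rises and falls among members called for Ang II. Other members were named after their values were seen. The members, role groups and marker lists were chosen with earlier results of these data known. The labels do not say how the mice were batched. Alternatives were a pseudocount of 4, no filter, TMM scaling, edgeR 4.0.16 and DESeq2 1.42.0 on the recovered reads, array quality weights, the adipocyte score as a covariate, only the groups compared, stricter thresholds and each mouse left out. The fits without X2385 and X2406 and with the log2 mitochondrial share as a covariate were added after seeing the data. The fits were tested on simulated data. Shared 84-base stretches and overlaps come from Gencode M21.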

Additional observations from a re-analysis of the deposited data

Results flagged for a closer look

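Among 116 groups of Ikbkb and 28 named members, 5 held a mouse that stood apart from the rest of its group by Dixon's criterion, which chance alone gives in about 1 in 20 groups. 6820431F20Rik was at 15.4 normalised counts in X2356 (WT Ang II), where the other mice of the group had 29.6 to 33.2. Kat6a was at 1593 in X2373 (WT saline), where the others had 1109 to 1222. Sfrp1 was at 7405 in X2403 (KO saline), where the others had 3064 to 3333. Ido1 was at 15.4 in X2356 (WT Ang II), where the others had 6.43 to 8.54. Fnta was at 1335 in X2406 (KO saline), where the others had 1059 to 1080.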

How the results depend on the processing

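The averaged genotype count of 9 was 8 to 12 under no filter, TMM scaling, edgeR, DESeq2, quality weights, a pseudocount of 4 and the adipocyte score, 7 at an adjusted p under 0.05, 6 at a fold above 1.5, 6 without X2385 and X2406 and 7 to 12 with each mouse left out. It was 2 with the mitochondrial share as a covariate, when Hgsnat and Gm21092 remained. The saline count of 8 was 16 with quality weights, 5 with the adipocyte score, 1 without X2385 and X2406, 0 with the mitochondrial share, and 1 to 13 with each mouse left out. The Ang II count of 3 was 0 with the adipocyte score, with only the groups compared, with the mitochondrial share and at an adjusted p under 0.05, and 0 to 4 with each mouse left out. For Ang II in WT mice the count of 7 was 3 at an adjusted p under 0.05, 1 at a fold above 1.5, and 0 to 8 with each mouse left out. For Ang II in KO mice the count of 6 was 0 with the adipocyte score, with only the groups compared and without X2385 and X2406, 3 at an adjusted p under 0.05, and 3 to 8 with each mouse left out. The cause was not tested. These counts cover members only, and the share of all genes called under the same alternatives was not counted. They therefore do not compare members with other genes. Of 948 recomputed values of called members 737 stayed called, 210 kept their direction without a call, and 1 reversed, Adrb3 for Ang II in KO mice at -0.18 with the adipocyte score. No paired analysis was possible because the labels give no shared replicate numbers. Depth limits Gm21092, Gm17484 and Gm40466, with 7, 45 and 157 reads in all KO mice.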

Other observations

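Of the 27 rows of the region below the filter, Gm45342 and Gm45343, unconfirmed transcripts within Nsd3 on its strand, had their highest values in 2 KO saline mice, X2406 (36.0 and 21.6 normalised counts) and X2403 (15.8 for Gm45342), while the WT mice had 0 to 6.43 and 0 to 5.34. Both were chosen after their values were seen. Nsd3 itself, a histone methyltransferase, did not pass for the averaged genotype effect (limma, -0.03, SE 0.06, adjusted p = 0.827). Atp7b, a copper transporter, had 16.2 in X2406 and at most 4.27 in any other mouse. Zmat4 had 31.8 in X2356 (WT Ang II), 10.8 in X2406 and at most 2.14 elsewhere. X2406 is also the mouse with the largest mitochondrial share.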
